A study of Mus musculus with 6 samples.

Results

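The genes described here are noncoding RNAs that carry small nucleolar RNAs (snoRNAs) in their introns, with the growth-arrest transcript Gas5 among them. They were taken by symbol from the table of read counts per gene, with the list Gas5, Snhg1, Snhg3, Snhg5, Snhg6, Snhg8, Snhg12 and Zfas1. Rows under these symbols existed for 7 of the 8, out of 24421 symbols in the table, and all 7 were deep enough to be tested. Zfas1 had no row of its own symbol. Its older name, 1500012F01Rik, which the RefSeq gene table gives as a synonym, did have a row, which is described beside the others as the Zfas1 row and stays out of every count of 7.

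RNA was sequenced from cochlear explants, whole pieces of the hearing organ of wild-type neonatal mice at postnatal day 2, in 3 control and 3 neomycin samples. After 12 h in culture the drug was given at 1 mM over 6 h, and culture then went on for 5 days in the presence of the nucleotide analog EdU (10 μM). Each sample pooled 6 to 8 cochleae. Neomycin is an aminoglycoside antibiotic that kills hair cells (HCs), the sensory cells of the organ. The treatment label separates the groups, while the protocol text of all 6 samples describes the neomycin exposure, so the control group is taken as explants without the drug. The strain and sex of the mice are not given in the sources used here, and nothing states that the pools came from separate litters or culture runs, so p-values measure the spread between these samples only.

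A snoRNA host gene is transcribed into a precursor from whose introns the snoRNAs are cut out. Box C/D snoRNAs then guide 2'-O-methylation and box H/ACA snoRNAs guide pseudouridylation of ribosomal RNA. The spliced host RNA that is left over is short, is loaded onto ribosomes and is often removed by nonsense-mediated decay, a pathway that depends on translation, so that several of these RNAs accumulate when cells stop growing or when translation is blocked. Many host genes start with a run of pyrimidines, as the genes of ribosomal proteins do (TOP genes, for terminal oligopyrimidine), and translation of TOP transcripts is controlled by the mTORC1 kinase.

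The hosts differed in the snoRNAs that they hold. The GENCODE M21 annotation of the mm10 build placed 30 snoRNAs inside the 8 genes, 9 in Gas5, 8 in Snhg1, 4 in Snhg12, 3 in Zfas1, 2 each in Snhg3 and Snhg5 and 1 each in Snhg6 and Snhg8. Box C/D snoRNAs carry the box C motif near the 5' end, searched here as TGATGA within the first 26 bases, and the box D motif near the 3' end, searched as CTGA within the last 15 bases. Both were found in 20 of the 30, against 306 of all 1507 annotated snoRNA transcripts (20.3%). A match describes these letters only. In Snhg12 only 1 of its 4 snoRNAs, Snord99, had both motifs. The sequences that follow, read 5' to 3' from the GENCODE transcripts with the box letters in capitals, are examples of snoRNAs with both. They are Snord47 of Gas5 (chr1:161038082-161038158, plus strand), Snord50a of Snhg5 (chr9:88521529-88521600, minus strand), Snord87 of Snhg6 (chr1:9942463-9942549, minus strand), Snord99 of Snhg12 (chr4:132310691-132310764, plus strand) and Snord12 of Zfas1 (chr2:167065276-167065365, plus strand).
Snord47: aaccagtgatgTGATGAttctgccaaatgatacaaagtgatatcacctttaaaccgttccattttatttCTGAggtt
Snord50a: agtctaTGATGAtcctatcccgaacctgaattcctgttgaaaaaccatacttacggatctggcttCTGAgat
Snord87: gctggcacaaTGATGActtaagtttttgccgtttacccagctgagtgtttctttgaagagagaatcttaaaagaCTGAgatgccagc
Snord99: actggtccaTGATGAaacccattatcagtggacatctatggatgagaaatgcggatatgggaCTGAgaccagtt
Snord12: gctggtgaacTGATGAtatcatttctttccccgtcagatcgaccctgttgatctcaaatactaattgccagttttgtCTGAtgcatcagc

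Neither motif was found in these windows in the snoRNAs of the 2 hosts with the largest change, Snhg3 and Snhg8. Snora16a, Snora44 and Snora61 had neither motif too, and their host Snhg12 had the smallest change of the 7 (log2 fold change 0.12). Snhg3 holds Snora73a and Snora73b, which belong to the U17 family and act in cleavage of the ribosomal RNA precursor, and Snhg8 holds Snora24, an H/ACA guide. Snora73a and Snora73b have 205 bases each and differ at 7 positions, and Snord50a and Snord50b, both in Snhg5, have 72 bases each and differ at 1 position, so reads from either pair are hard to assign. Snora73b (chr4:132352322-132352526, minus strand) and Snora24 (chr3:123507937-123508066, minus strand) are given for comparison with the C/D sequences.
Snora73b: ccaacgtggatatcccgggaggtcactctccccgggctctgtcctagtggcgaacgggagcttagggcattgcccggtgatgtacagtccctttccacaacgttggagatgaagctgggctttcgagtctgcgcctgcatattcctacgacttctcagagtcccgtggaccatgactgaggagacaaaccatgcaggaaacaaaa
Snora24: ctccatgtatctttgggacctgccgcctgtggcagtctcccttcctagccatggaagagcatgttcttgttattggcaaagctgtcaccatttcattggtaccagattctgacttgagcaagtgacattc

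Of the 7 host RNAs, 4 were higher in the neomycin group. After a correction for exon length with RefSeq-linked lengths, Gas5 was still called higher and Snhg12 was called lower. With median transcript lengths, an alternative added after the data were seen, Snhg3 and Snhg8 were called higher. By the quasi-likelihood test of edgeR, adjusted by Benjamini-Hochberg over the 15988 genes tested, 4 of 7 passed an adjusted p of 0.05, all of them higher, namely Gas5, Snhg1, Snhg3 and Snhg8. Of all genes tested, 12.9% were called higher and 16.1% lower at this threshold. The 7 had a median length of 606 bases. Of all genes over 500 and up to 1000 bases, 42.7% were called higher, with a median log2 fold change of 0.34. The other members, Snhg5, Snhg6 and Snhg12, were not called and had estimates above 0. The median log2 fold change of the 7 was 0.40, with a range from 0.12 to 0.76, beside a median of -0.0041 over all genes tested. With a fold change over 1.5 also required, 1 of 7 was called, Snhg3, where 2.24% of all genes were called higher. In bulk tissue, more cells of a type and more RNA per cell cannot be told apart. Levels are given as CPM, counts scaled to libraries of one common size.

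**Figure D1:**
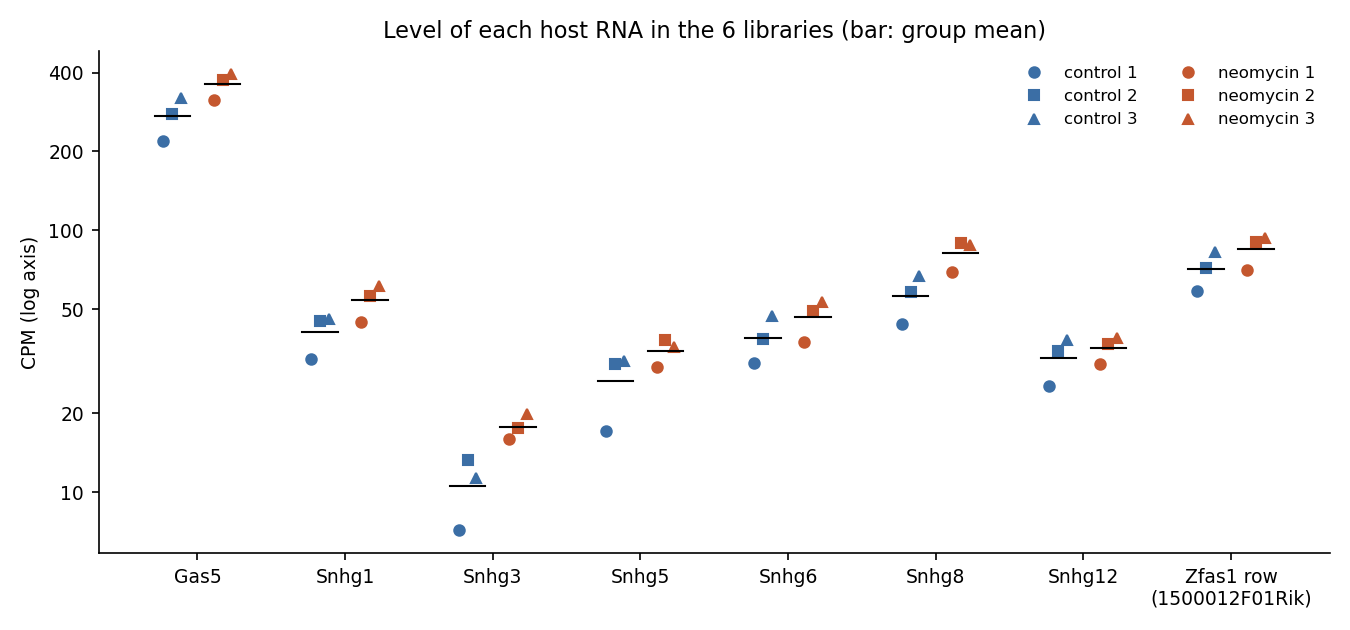
CPM (log axis) of each host RNA in the 3 control and 3 neomycin libraries, with a bar at the group mean. The neomycin points lie above all control points for Snhg3 and Snhg8 and overlap them for the other 6 rows, and control 1 is the lowest point of every row.

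Gas5 (chr1:161034422-161038539, plus strand, 4118 bases from end to end) was first found as a transcript that builds up in growth-arrested cells, and it was the most abundant of the hosts. Control replicates 1, 2 and 3 held 220, 279 and 320 CPM, and neomycin replicates 1, 2 and 3 held 314, 375 and 397 CPM. The ranges overlapped, because neomycin 1 was below control 3. Group means were 273 ± 50.002 and 362 ± 43.2 CPM (SD, n = 3 each), and the log2 fold change was 0.41 (SE 0.13, adjusted p = 0.030 by edgeR). This call was lost when control 1 (log2 fold change 0.28, adjusted p = 0.085), control 2 (0.43, adjusted p = 0.083), neomycin 2 (0.38, adjusted p = 0.109) or neomycin 3 (0.34, adjusted p = 0.108) was left out, so the estimate was about as large without control 2 or neomycin 2.

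Snhg1 (chr19:8723475-8726443, plus strand), the host of Snord22 and 7 other annotated snoRNAs, had a change of about the size of that of Gas5. Its control libraries held 32.2, 45.1 and 45.8 CPM and its neomycin libraries 44.5, 56.2 and 61.1 CPM. Control 1 was low, neomycin 1 lay within the control range, and neomycin 2 and 3 lay above it. The log2 fold change was 0.40 (SE 0.14, adjusted p = 0.046 by edgeR). Without control 1 it was 0.25 (adjusted p = 0.129), without control 2 it was 0.47 (adjusted p = 0.066), without neomycin 2 it was 0.37 (adjusted p = 0.145) and without neomycin 3 it was 0.30 (adjusted p = 0.166).

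Snhg3 (chr4:132348014-132353686, minus strand) had the lowest counts of the 7, from 493 to 1063 reads per library, and the largest change. It was measured at 7.14, 13.3 and 11.3 CPM in control and at 16.0, 17.5 and 19.8 CPM after neomycin. The groups did not overlap, and the lowest neomycin library was 1.21 times the highest control library. Means were 10.6 ± 3.12 and 17.8 ± 1.91 CPM (SD, n = 3 each), a log2 fold change of 0.76 (SE 0.18, adjusted p = 0.0088 by edgeR). The call held whichever library was left out, with adjusted p between 0.0075 and 0.034, but the fold fell below 1.5 without control 1 (log2 fold change 0.54).

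Snhg8 (chr3:123507552-123508404, minus strand), annotated as a single exon block with Snora24 inside it, was the other host with separate groups. Its levels were 43.8, 58.0 and 66.8 CPM in control and 69.4, 89.3 and 87.9 CPM after neomycin. The gap was narrow, since the lowest neomycin library was 1.04 times the highest control library. The log2 fold change was 0.55 (SE 0.14, adjusted p = 0.010 by edgeR), and the adjusted p rose to 0.057 without neomycin 2 (log2 fold change 0.49). Every neomycin library was above every control library for 2 of the 7 members and for 21.0% of all genes tested.

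The remaining hosts were not called with all 6 libraries. Snhg5 (chr9:88521050-88522929, minus strand), the host of the paired U50 snoRNAs, was at 17.1, 30.8 and 31.7 CPM in control and at 29.99, 38.2 and 35.8 CPM after neomycin. Control 1 stood far below the other 5 libraries, which lay close together, and the log2 fold change of 0.39 had the largest SE of the 7 (0.18, adjusted p = 0.130 by edgeR). It was 0.16 without control 1, and 0.55 with a call without control 3 (adjusted p = 0.049). Snhg6 (chr1:9941959-9944118, minus strand), the host of Snord87, was at 31.2, 38.6 and 47.0 CPM in control and at 37.5, 49.0 and 53.4 CPM after neomycin. These values overlapped, with a log2 fold change of 0.26 (SE 0.14, adjusted p = 0.193 by edgeR). It was called without control 3 (0.43, adjusted p = 0.033) or neomycin 1 (0.40, adjusted p = 0.042), and was 0.13 without control 1 and 0.15 without neomycin 3. Snhg12 (chr4:132308623-132311024, plus strand), which holds Snora16a, Snora44, Snora61 and Snord99, was at 25.4, 34.5 and 37.9 CPM in control and at 30.8, 36.8 and 38.6 CPM after neomycin. Its groups nearly coincided apart from control 1, and the log2 fold change of 0.12 (SE 0.13, adjusted p = 0.526 by edgeR) turned to -0.03 without that library.

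Zfas1 (chr2:167062934-167065862, plus strand) runs antisense from the start of Znfx1 and carries Snord12. Its row was at 58.4, 71.8 and 82.3 CPM in control and at 70.5, 90.6 and 93.2 CPM after neomycin. Control 3 lay between neomycin 1 and neomycin 2, and the log2 fold change of 0.26 (SE 0.12) was not called (adjusted p = 0.137 by edgeR). Leaving out control 3 or neomycin 1 gave 0.39 or 0.38 (adjusted p = 0.029 and 0.030), and leaving out control 1 gave 0.14.

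The libraries of a group differed in a way that these RNAs shared. Control 1 was the lowest of the 6 libraries in 8 of 8 rows, neomycin 1 was the lowest neomycin library in 8 of 8, and neomycin 1 was below control 3 in 6 of 8. On log2(CPM + 0.5), relative to the control mean of each gene, the mean of the 7 members was -0.38, 0.14 and 0.24 in control 1, 2 and 3 and 0.20, 0.50 and 0.56 in neomycin 1, 2 and 3. Control 1 and control 3 were therefore farther apart than control 3 and neomycin 3. The distance of single members from this mean profile, as the root mean square difference over the 6 libraries, ran from 0.0457 for Snhg1 and 0.0530 for Gas5 to 0.208 for Snhg12 and 0.268 for Snhg3. The first 2 thus tracked the mean most closely, Snhg12 lay below it in the neomycin libraries and Snhg3 above it.

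**Figure D2:**
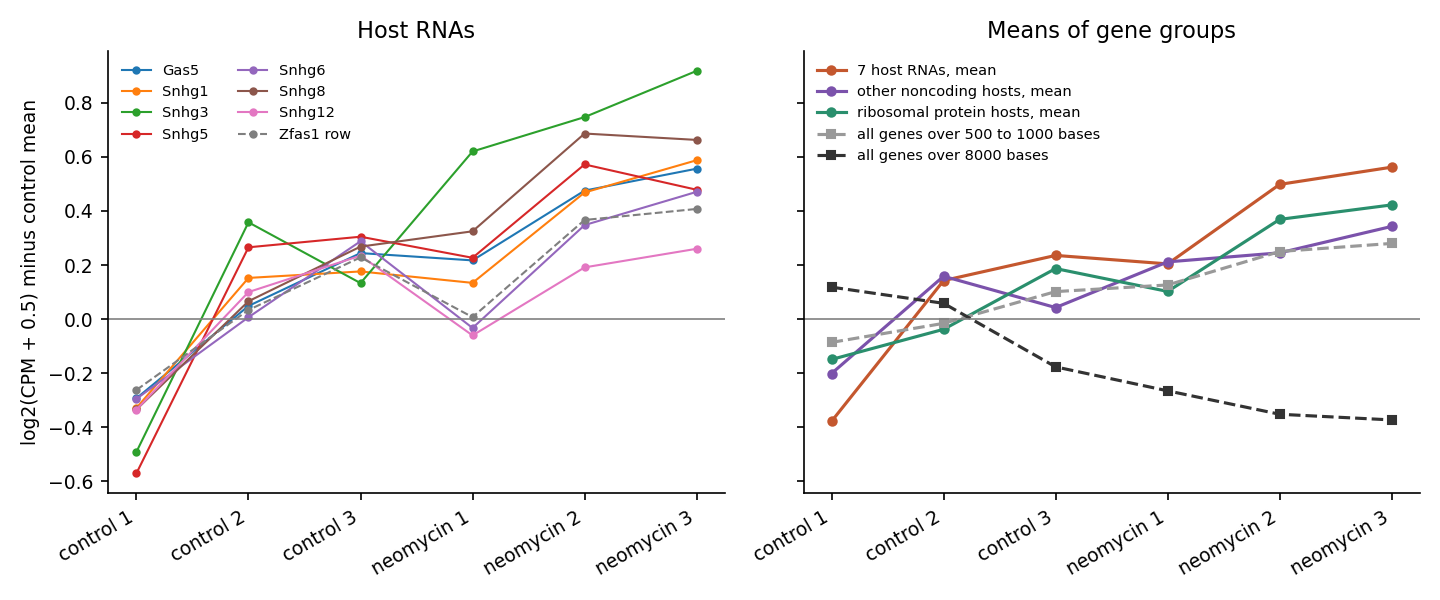
log2(CPM + 0.5) of each library minus the control mean, for each host RNA (left) and for means of gene groups (right); lines join the values of 1 gene or group and mark no order of libraries. Control 1 is low for every host RNA, and the mean of genes over 8000 bases runs the opposite way, from 0.12 in control 1 to -0.37 in neomycin 3.

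The change across all genes went with the length of their exons. Genes over 500 and up to 1000 bases had a median log2 fold change of 0.34 (913 genes, of which 42.7% were called higher), genes over 2000 and up to 4000 bases one of 0.01 (6223 genes, 9.01% called higher), and genes over 8000 bases one of -0.30 (878 genes, 1.14% called higher). Short and long genes also differed within the control group. The mean of the genes over 500 and up to 1000 bases was -0.09 in control 1 and 0.10 in control 3, and that of the genes over 8000 bases was 0.12 and -0.18. The host RNAs are short. By the transcripts that GENCODE links to RefSeq, Snhg6 had 400 bases, Snhg3 437, Snhg1 605, Snhg12 606, the Zfas1 row 738, Snhg8 776 and Snhg5 1004. Gas5 is the exception, with 2556 bases in a form that keeps 6 of its snoRNAs within exons, while the median over its 25 annotated transcripts was 629 bases.

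**Figure D3:**
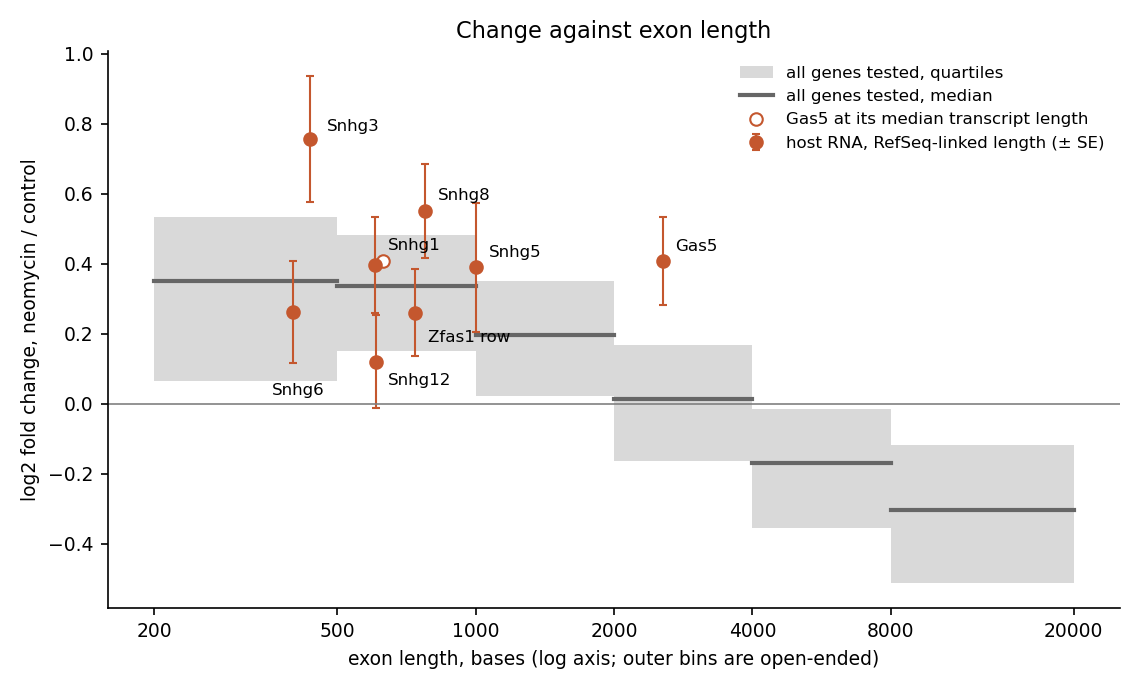
log2 fold change (neomycin over control) against exon length on a log axis, with the median and quartiles of all genes tested in 6 length bins and the host RNAs as points (± SE). Snhg3, Snhg8, Snhg5 and Gas5 lie above the upper quartile of their bins, with Gas5 drawn again at 629 bases, where it falls inside the quartiles. Snhg5, at 1004 bases, lies just past a bin edge, and its 0.39 is inside the quartiles (0.15 to 0.48) of the bin up to 1000 bases.

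A correction that removed from each library its trend on exon length took away most of the difference. It was fitted over the 15861 genes with a length. Gas5 was then the only member called higher (1 of 7, against 8.54% of all genes), with a log2 fold change of 0.36 (SE 0.11, adjusted p = 0.038 by edgeR). Snhg12 was called lower at -0.27 (SE 0.09, adjusted p = 0.046 by edgeR), where 11.6% of all genes were called lower. Snhg3 and Snhg8 kept estimates above 0 without a call, at 0.33 (SE 0.15, adjusted p = 0.136) and 0.21 (SE 0.09, adjusted p = 0.124). Snhg1 came to 0.0036 (SE 0.09) and Snhg5 to 0.10 (SE 0.15). Snhg6 turned to -0.17 (SE 0.08, adjusted p = 0.180) and the Zfas1 row to -0.10 (SE 0.08, adjusted p = 0.411). The median of the 7 was 0.10, beside -0.0031 over all genes tested.

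**Figure D4:**
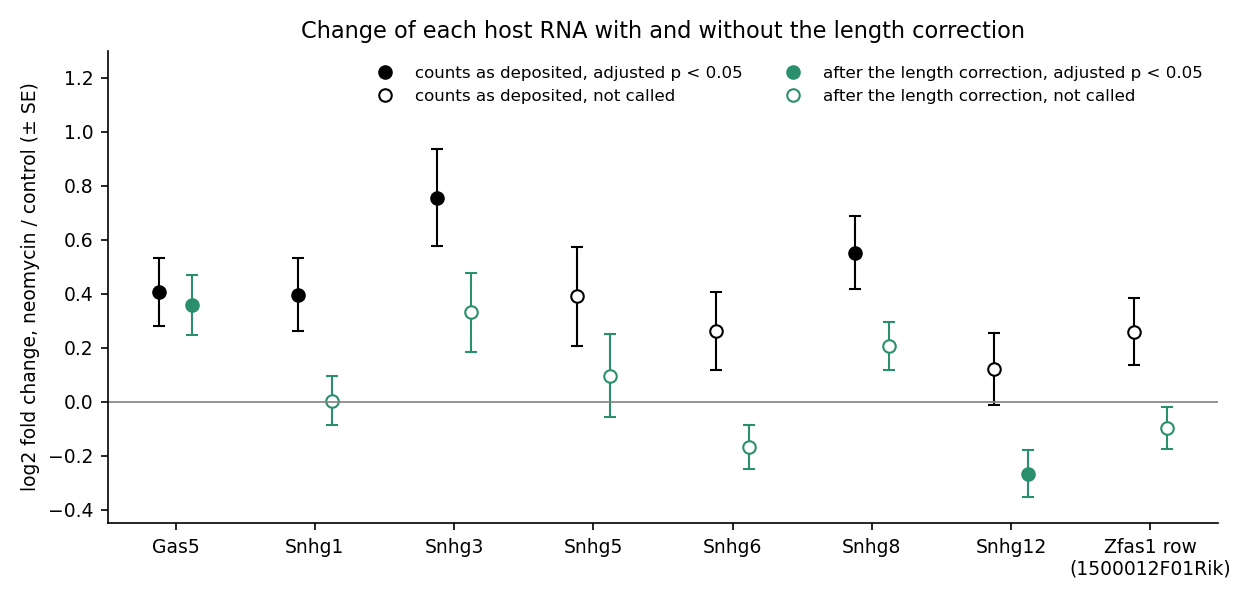
log2 fold change of each host RNA (± SE) on the counts as deposited (black) and after the length correction (green), with filled points at an adjusted p under 0.05. After the correction the filled points are Gas5, higher at 0.36, and Snhg12, lower at -0.27.

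Which members were called depended on the lengths used. With the median transcript length of each gene in place of the RefSeq-linked one, an alternative added after the data were seen, Gas5 stood at 0.31 with an adjusted p of 0.051, while Snhg3 (0.56, adjusted p = 0.022) and Snhg8 (0.41, adjusted p = 0.018) were called, and Snhg1 was not (0.29, adjusted p = 0.092). This made 2 of 7 called higher, where 11.4% of all genes were, with a median of 0.31. The lengths of all genes changed together in this alternative, so the part of any one gene's length was not tested. The libraries do not tell which isoform lengths the reads came from, and whether fragment length or RNA quality differed between libraries was not tested.

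Levels can be compared between genes only per length. Per kilobase of the RefSeq-linked transcript, the control means were 107 ± 19.6 CPM for Gas5, 97.3 ± 19.7 for Snhg6, 96.0 ± 16.2 for the Zfas1 row and 72.4 ± 14.9 for Snhg8 (SD, n = 3 each). Lower in the order came Snhg1 at 67.8 ± 12.7, Snhg12 at 53.8 ± 10.7, Snhg5 at 26.4 ± 8.18 and Snhg3 at 24.2 ± 7.15 CPM per kilobase. The ranges of the control libraries overlapped between all neighbours in this order but Snhg12 (lowest 41.9) and Snhg5 (highest 31.6). In the neomycin libraries Snhg3 (40.7 ± 4.36) stood above Snhg5 (34.5 ± 4.22). At the median transcript lengths Gas5 would stand at 434 CPM per kilobase in control and the next, Snhg8, at 106, so the size of its lead depends on the isoform.

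The start sites of the hosts were examined for the pyrimidine run of TOP genes. The RefSeq promoter table (GRCm38.p6, the build of mm10) matched 7 of the 8 genes, all but Snhg6. The motif searched, on the strand of the gene, was a C followed by at least 4 bases that are C or T, beginning at the start site. It was found for Snhg8 and for the second of the start sites of Gas5, and at 2.51% of all 32851 start sites in the table. Within 10 bases of the start site it was also found for Snhg3, Snhg5 and Snhg12, which 30.7% of all start sites share, and there was none within 10 bases for Snhg1 and Zfas1. Of the 13 start sites of ribosomal protein hosts, 0 had the run at the annotated base and 38.5% had it within 10 bases. The search thus missed the run at the annotated base of known TOP genes, so it cannot show which hosts are TOP genes. Among the 4 hosts called higher, the run was at an annotated start in a pair, near it in Snhg3 and not found within 10 bases in Snhg1. The 41 bases around their start sites, with the run in capitals and the start site in the middle, are shown. They lie at chr1:161035146-161035186 (plus strand, Gas5), chr3:123508316-123508356 (minus strand, Snhg8), chr4:132353666-132353706 (minus strand, Snhg3) and chr19:8723467-8723507 (plus strand, Snhg1).
Gas5: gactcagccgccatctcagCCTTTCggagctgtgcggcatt
Snhg8: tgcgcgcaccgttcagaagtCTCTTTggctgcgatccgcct
Snhg3: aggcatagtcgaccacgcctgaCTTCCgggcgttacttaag
Snhg1: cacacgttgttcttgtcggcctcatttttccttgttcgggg

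No protein-coding gene at the start of a host was called higher. Slc3a2, the heavy chain of amino acid transporters, is read away from Snhg1 on the other strand with starts 106 bases apart, with group means of 105 ± 6.52 and 106 ± 12.5 CPM in control and neomycin (log2 fold change 0.0082, SE 0.09, adjusted p = 0.957 by edgeR). Rcc1, the nucleotide exchange factor of Ran, lies on the strand of Snhg3 and overlaps it by 5592 bases, with starts 81 bases apart and 0 shared exonic bases. Its group means were 21.9 ± 0.349 and 19.95 ± 0.727 CPM (log2 fold change -0.13, SE 0.08, adjusted p = 0.253 by edgeR). Zbtb37, a zinc finger gene that overlaps the start of Gas5 by 428 bases on the other strand, was near 2 CPM with a log2 fold change of -0.27 (SE 0.29, adjusted p = 0.510). Znfx1, a helicase gene that shares 82 exonic bases with Zfas1 on the other strand, fell from 41.2 ± 4.25 to 31.5 ± 3.74 CPM (log2 fold change -0.39, SE 0.10, adjusted p = 0.014 by edgeR). Whether the counting used strand and how it treated reads that fall in both genes are not given. Reads in these bases could thus be counted for either gene or for neither. Mcmdc2, which overlaps Snhg6 by 127 bases, was too low to be tested, and Gm17300, which shares 347 exonic bases with Snhg3, had no row.

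The ratio of host to neighbour within a library was compared as well. Snhg3 over Rcc1 was 0.322, 0.617 and 0.514 in the control libraries, in the order of their numbers, and 0.837, 0.861 and 0.971 in the neomycin libraries. Snhg1 over Slc3a2 was 0.329, 0.419 and 0.416 in control and 0.482, 0.520 and 0.523 after neomycin. Neither ratio overlapped between the groups, and each gave an exact two-sided permutation p of 0.1, the smallest that 3 against 3 allows. Gas5 over Zbtb37 (89.9 to 225 in control, 160 to 284 after neomycin) and the Zfas1 row over Znfx1 (1.27 to 2.19 and 1.97 to 3.23) overlapped, with an exact permutation p of 0.2 each. After adjustment over the 4 pairs the exact permutation p was 0.2 for each. The neighbours are longer than the hosts, from 2324 bases for Rcc1 to 7352 for Znfx1, so these ratios move with the length trend too.

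**Figure D5:**
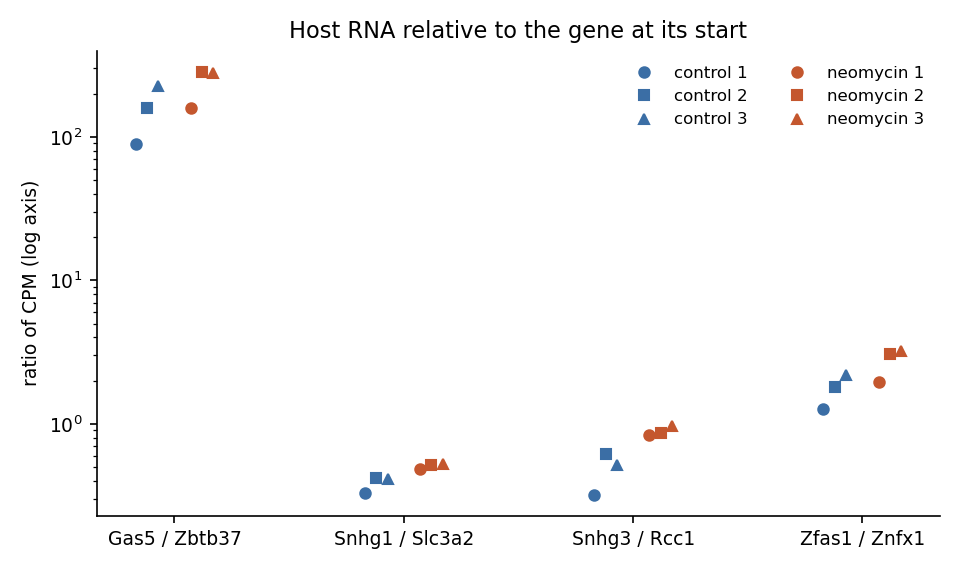
Ratio of the CPM of a host RNA to that of the protein-coding gene at its start (log axis), for 4 pairs in each of the 6 libraries. The control and neomycin points are separate for Snhg1 over Slc3a2 and Snhg3 over Rcc1 and overlap for the other pairs.

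The snoRNAs themselves were barely counted in these libraries, which were made with an mRNA kit. Of the 30 annotated in the hosts, 9 had a row in the table, and 8 of these were tested with 7 to 136 reads per library. Snord22 had the most, with 86, 102 and 120 reads in control and 125, 131 and 136 after neomycin, and all its reads came to 4.35% of those of its host Snhg1. Snora24 had 0 reads in all 6 libraries, but it lies inside the exon of Snhg8, and how reads that fall in both genes were counted is not given. Its 0 therefore does not show that this snoRNA was absent. None of the 8 was called by edgeR, by DESeq2 or by limma-voom, and 0 had an unadjusted p under 0.05 in edgeR. Their estimates were above 0 in 8 of 8, and 4 of the 8 share the host Snhg12. These snoRNAs are short, and the 195 genes tested of up to 500 bases had a median log2 fold change of 0.35. Of those genes, 23.1% were called higher and 1.54% lower. Snord99 was at 27, 49 and 30 reads in control and 34, 76 and 74 after neomycin, with the largest log2 fold change of the 8 (0.84, SE 0.43, adjusted p = 0.158 by edgeR). Snora61 was at 40, 42 and 49 reads in control and 52, 77 and 68 after neomycin (log2 fold change 0.66, SE 0.33, adjusted p = 0.150). In CPM every neomycin library was above every control library for 4 of the 8, namely Snora61, Snord47, Snord22 and Snord12, beside 21.0% of all genes tested. The other 6 had log2 fold changes from 0.06 (Snora16a) to 0.65 (Snord12), with SEs between 0.26 and 0.59 and adjusted p between 0.211 and 0.929.

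Other noncoding hosts of snoRNAs were also higher in part. Rows existed for 11 of 14 listed symbols and 10 were tested. Of these, 3 were called higher and 0 lower, with a median log2 fold change of 0.35. Over all genes tested, 12.9% were called higher and 16.1% lower, and after the length correction 8.54% and 11.6%. The same shares stand beside every list below. This list had a median length of 1554.5 bases over 8 genes, and 27.3% of all genes over 1000 and up to 2000 bases were called higher. Snhg20 rose from 19.3 ± 6.39 to 36.7 ± 2.45 CPM (log2 fold change 0.93, SE 0.18, adjusted p = 0.0034 by edgeR) and remained called after the length correction (0.54, adjusted p = 0.029). Dancr, which holds snoRNAs and is known to keep progenitor cells undifferentiated, rose from 7.96 ± 2.25 to 12.4 ± 0.543 CPM (log2 fold change 0.64, SE 0.18, adjusted p = 0.018), and Snhg18 from 52.002 ± 5.59 to 64.998 ± 7.85 CPM (0.32, SE 0.10, adjusted p = 0.030). After the correction 2 of the 8 with a length were called higher, Snhg20 and Snhg14. Long noncoding RNAs without snoRNAs had a median of 0.01 over 13 tested, with 0 called higher and 1 lower. That gene was Miat (log2 fold change -0.47, SE 0.12, adjusted p = 0.014), and H19, the most abundant, was at 9511 ± 912 and 9539 ± 1341 CPM. These RNAs are long, with a median of 6779 bases, and after the length correction 3 of 13 (Kcnq1ot1, Meg3 and Tug1) were called higher and 1, 1700020I14Rik, lower (-0.52, adjusted p = 0.0073).

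Ribosomal protein genes, the best known TOP genes, include many hosts of snoRNAs. The 22 tested had a median length of 995.5 bases, and 42.7% of all genes over 500 and up to 1000 bases were called higher. Of the 22, 7 were called higher and 0 lower, with a median log2 fold change of 0.31. Among those called, the largest changes were those of Rps12 (0.57, SE 0.12, adjusted p = 0.0054), Rps20 (0.50, SE 0.11, adjusted p = 0.0064), Rpl21 (0.48, SE 0.16, adjusted p = 0.039) and Rpl13a (0.40, SE 0.13, adjusted p = 0.036). Such genes have near-identical pseudogene copies, so their counts are uncertain. After the length correction 1 was called higher (Rps20) and 1 lower (Rpl7a), with a median of 0.02. Protein-coding hosts outside the ribosome had a median of 0.06 over 20 tested, with 1 called higher and 2 lower. Tpt1, the translationally controlled tumor protein, was higher (0.34, SE 0.12, adjusted p = 0.042), and Eef2, the elongation factor, and Prrc2a were lower at -0.27 (SE 0.10, adjusted p = 0.049) and -0.35 (SE 0.10, adjusted p = 0.019). After the length correction 2 of the 20 were called higher (Ncl and Nop58) and 1 lower (Eef2).

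Proteins that bind and assemble snoRNAs changed in part. Among the 4 core proteins of box H/ACA particles, Nhp2 (log2 fold change 0.42, SE 0.10, adjusted p = 0.0073 by edgeR) and Nop10 (0.41, SE 0.10, adjusted p = 0.0099) were higher, while Dkc1, the pseudouridine synthase, was at 33.3 ± 1.15 and 33.2 ± 1.15 CPM. Of the box C/D core, 0 of 4 tested were called by edgeR and by limma-voom, and 1 by DESeq2, while 2 had an unadjusted p under 0.05 in edgeR. Nhp2l1, the most abundant and the one called by DESeq2, had a log2 fold change of 0.22 (SE 0.08, adjusted p = 0.057 by edgeR). Assembly factors were called higher in 3 of 11 and lower in 0, beside 12.9% and 16.1% of all genes. The 3 were Pih1d1 (0.45, SE 0.07, adjusted p = 0.00088), Ruvbl1 (0.36, SE 0.08, adjusted p = 0.0056) and Znhit6 (0.31, SE 0.09, adjusted p = 0.019). After the length correction 0 of the 4 H/ACA proteins and 1 of the 4 box C/D proteins (Nop58, 0.28, adjusted p = 0.046) were called by edgeR, and of the assembly factors Pih1d1 and Nufip1 were called higher and Ruvbl2 lower.

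The pathways that are known to set the stability and translation of host RNAs moved both ways. Of 14 factors of nonsense-mediated decay, 4 were called higher and 2 lower (12.9% and 16.1% of all genes), with a median of -0.02. Rbm8a (log2 fold change 0.49, SE 0.07, adjusted p = 0.00036) and Magoh (0.40, SE 0.10, adjusted p = 0.013), partners in the exon junction complex, and Upf3b (0.30, SE 0.09, adjusted p = 0.031) were among the first. Smg1, the kinase of Upf1, was lower (-0.39, SE 0.09, adjusted p = 0.0082). After the length correction Rbm8a alone was called. Of 14 genes of mTORC1 and TOP regulation, 2 were called higher and 5 lower, with a median of -0.0071. Eif4ebp2, a repressor of cap-dependent translation, fell from 20.9 ± 4.06 to 9.63 ± 1.38 CPM (log2 fold change -1.12, SE 0.15, adjusted p = 0.00029) and had a log2 fold change of -1.34 after the length correction. Mtor (-0.45, SE 0.09, adjusted p = 0.0028) and Tsc1 (-0.37, SE 0.09, adjusted p = 0.0090) were lower and Rheb, the activator of mTORC1, was higher (0.38, SE 0.09, adjusted p = 0.011). After the length correction 5 were called higher and 1 lower, Eif4ebp2. These are transcript levels and do not measure kinase activity or decay.

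The genes whose profile over the 6 libraries was most like the mean of the 7 members were found among 10375 genes with a mean of at least 10 CPM, by the smallest root mean square difference of log2 values relative to control. They were Rps27l (0.0546), Hilpda (0.0673), Bloc1s4 (0.0677), Zswim7 (0.0751), Fuom (0.0770), Rpl24 (0.0786), Sat1 (0.0805), Vmo1 (0.0819), Lyz2 (0.0824) and Higd1a (0.0841). Rps27l and Rpl24 are ribosomal protein genes, Sat1 encodes an enzyme of polyamine breakdown and Lyz2 the lysozyme of macrophages. Rps27l had group means of 105 ± 16.99 and 140 ± 20.6 CPM in control and neomycin (log2 fold change 0.41, SE 0.12, adjusted p = 0.027 by edgeR). The exon lengths of the 10 ran from 580 bases for Rps27l to 2232 for Higd1a.

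RNA levels of markers of several cell types differed between the groups, and the values are given beside the hosts. They do not tell a change in cell number from a change in RNA per cell. HC markers were called lower in 11 of 12, with summed levels from 626 to 689 CPM in control and from 318 to 369 after neomycin. Endothelial markers were lower in 5 of 7 (summed, 277 to 310 and 266 to 316 CPM, or 38.8 to 51.1 and 18.2 to 20.2 CPM without Emcn), neuronal markers lower in 4 and higher in 1 of 8 (148 to 234 and 130 to 156 CPM) and mesenchymal markers lower in 3 and higher in 1 of 7 (2538 to 3080 and 2302 to 2424 CPM). Supporting cell markers were lower in 4 and higher in 1 of 12 (2601 to 2985 and 3196 to 3389 CPM, or 1181 to 1209 and 1102 to 1146 CPM without S100a1), Schwann cell markers lower in 1 of 6 (197 to 246 and 191 to 226 CPM) and macrophage markers higher in 3 of 8 (68.3 to 86.8 and 89.6 to 115 CPM). S100a1 and Emcn, single abundant genes, thus carry the sums of their lists. No marker was at 0 in all libraries. The part of these shifts in the levels of the host RNAs was not tested.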

How the data were processed

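RNA-seq of 3 control and 3 neomycin samples of cochlear explants was used. Per the labels, libraries were made with an mRNA kit, and the submitters' processing notes name CASAVA 1.8, Trimmomatic 0.23, HISAT2, HTSeq, DESeq2 and the mm10 build. The authors deposited raw counts of reads for each gene symbol and did not normalize them. Strand setting, treatment of multiply mapped reads and the version of the annotation are not given in the sources used here. Total counts ran from 50471116 to 66068108 per library, and replicates differed by more than counting noise (mean chi-square per gene 13.4 to 45.2 over pairs). No group of a gene named as called was at the floor of 3 counts per library, and floors cover counting error only.

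The counts were scaled with TMM, filtered with filterByExpr and tested with edgeR 4.0.16 (R 4.3.3, quasi-likelihood test, Benjamini-Hochberg adjustment over 15988 genes). A call is an adjusted p under 0.05, and a fold over 1.5, the study's threshold, was also counted. SE is the size of the log2 fold change over the square root of F. Alternatives were DESeq2 1.42.0, limma-voom (limma 3.58.1), other scalings, filters and thresholds, the replicate number as a block, leaving out each sample, and a length correction (lowess of each library's log2 ratio on exon length, span 0.3; 99.2% of tested genes had a length). Neighbour ratios were compared by exact permutation tests. GENCODE M21 held 23376 symbols directly and 666 by an older symbol. On simulated data with 200 of 15840 genes changed, the edgeR test recovered 183 with 12 false calls. The changes put in were folds of about 1.5 or more in either direction, in genes drawn independently and without a length trend. These rates therefore do not apply to smaller changes, such as those of most members, or to shifts that libraries share.

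The members and gene lists were chosen with earlier results of these data known. Named are all members, up to 4 called genes per list by size of change (where fewer passed, also the most abundant gene), annotated neighbours overlapping or starting within 2000 bases of a member, hosted snoRNAs with a row, and the 10 genes most like the members' mean profile. Snhg14, Rpl7a, Ncl, Nop58, Nufip1, Ruvbl2, Dkc1, Kcnq1ot1, Meg3, Tug1, 1700020I14Rik, S100a1 and Emcn were named after their values were seen. The series' own design text describes another experiment and was not used.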

Additional observations from a re-analysis of the deposited data

How the results depend on the processing

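Over the 18 alternatives, 109 of 144 member values kept their direction and their side of the threshold, 20 lost a call, 8 gained one and 7 changed sign. The count of members called, 4, all higher, was 2 after the length correction (1 higher, 1 lower) and 2 with median transcript lengths (both higher), and 1 at an adjusted p under 0.01, where all genes called fell from 4629 to 2205. Members called with a fold over 1.5 were 1, and 0 after either length correction and with the replicate block and length correction together. Leaving out 1 library gave 1 to 6 members called, 0 to 2 with the fold, and 2518 to 5341 genes in all. Without control replicate 1 these were 2, 0 and 3263, without control replicate 2 they were 2, 1 and 2567, without control replicate 3 they were 6, 2 and 5341, without neomycin replicate 1 they were 5, 2 and 4403, without neomycin replicate 2 they were 1, 1 and 2518, and without neomycin replicate 3 they were 2, 1 and 3001. The length correction reversed Snhg6 (-0.17), Snhg12 (-0.27) and the Zfas1 row, 1500012F01Rik (-0.10), and the replicate block with length correction gave -0.17, -0.26 and -0.10. Leaving out 1 library took Snhg12 from -0.026 (without control replicate 1) to 0.26 (without control replicate 3). The cause of these changes was not tested beyond the length correction itself.

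Samples of the 2 groups share replicate numbers only. Deviations from the group means correlated at 0.026 to 0.17 between same-numbered samples, and 5 of 6 libraries correlated best with their own number, which is a hint from the data and not the design. With the replicate number as a block, 6 of 7 members were called higher (all but Snhg12), and the Zfas1 row, 1500012F01Rik, was called too (0.26, adjusted p = 0.0056 by edgeR). The block raised the calls over all genes as well, to 6014 of 15988, higher and lower together, from 4629 without it. On the simulated data it gave 17 false calls, where the main test gave 12. With block and length correction together, 3 members were called, Gas5 and Snhg8 higher and Snhg12 lower, and 3745 of 15861 genes, higher and lower together.

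At this depth the members held 493 to 22137 reads per library, so counting error was small beside the spread between libraries. The hosted snoRNAs, with 7 to 136 reads, and the 3 samples per group limit the precision.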
